A study of Rattus norvegicus with 24 samples.

Results

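The comparison described here set the dentate gyrus of old rats with impaired spatial learning against that of young rats, on 7 impaired and 8 young arrays. The arrays were chosen by their titles, and make up 15 of the 21 arrays with values. A further 6 arrays, from old rats with unimpaired learning, entered the same fit for the estimate of spread and are quoted beside the results. The series labels 24 arrays, of which 3 were omitted by the submitters in quality control, 1 in each group (impaired replicate 5, unimpaired replicate 2 and young replicate 8).

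The rats were male Long-Evans animals, an outbred strain, housed singly and given no treatment. Old rats were 24 to 26 months of age and young rats 6 months. Learning was scored in the Morris water maze, where a rat searches for a hidden platform, by how near the animal swam to the platform in probe trials. Old rats scoring worse than the young were classed as impaired, and those within the young range as unimpaired. Because the classes were set by performance, no treatment separates the old groups, and age separates the impaired from the young rats together with learning. Brains were taken 2 weeks after testing, CA1, CA3 and dentate gyrus were dissected apart, and total dentate RNA of each animal was hybridised to an Affymetrix rat array. Every array is labelled as a separate biological replicate.

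The dentate gyrus is the entry station of the hippocampal circuit. Its granule neurons receive input from the entorhinal cortex and send mossy fibres to CA3, and new granule neurons are added from local progenitors in adult life, at a rate that declines with age. Ageing of the rodent hippocampus is also known for activation of microglia and astrocytes and for changes in myelin and small vessels.

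Granule neuron markers were detected in the tissue labelled as dentate gyrus. Of 12 listed markers on the array, 11 were measured, among them Prox1, the transcription factor that keeps granule identity, at a mean log2 level of 10.85 in young and 10.80 in impaired rats, and the synaptic organiser C1ql3 at 12.55 and 12.27. Tdo2, another granule marker, did not pass log2 4 on any array. The 11 granule markers averaged 10.22 to 10.62 on young and 10.32 to 10.71 on impaired arrays. The 9 measured markers of CA1 and CA3 pyramidal neurons averaged 7.01 to 7.88 and 7.33 to 7.89. Levels of different genes do not measure how cleanly the dentate gyrus was dissected. Array medians of the log2 values were 3.77 to 3.83 in young and 3.80 to 3.84 in impaired rats, and the mean r of an array with its own group was 0.990 to 0.992. The excess of 3' over 5' signal, a measure of RNA breakdown, was 0.511 ± 0.037 (SD, n = 8) for Gapdh in young and 0.539 ± 0.046 (SD, n = 7) in impaired rats. For beta-actin it was 2.34 ± 0.08 and 2.29 ± 0.10. In two-sided exact permutation tests adjusted over these 3 measures, each had an adjusted p of 0.282. Arrays without molecule counts have no depth, so the number of animals limits the precision.

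Levels are log2 values, so a difference of 1 is a change of 2-fold, and differences are given as impaired minus young ± the moderated standard error of the limma fit. A probe set passed at a limma adjusted p below 0.05, Benjamini and Hochberg, over all 15177 probe sets tested. Among these, 78 passed, or 0.514%, of which 47 (0.31%) were higher and 31 (0.204%) lower in impaired rats. They came to 58 named genes, 37 higher and 21 lower, and 17 probe sets that the annotation leaves without a gene symbol. The changes were mostly small: the median size over the 58 genes was 0.42, and 6 of the 78 probe sets changed at least 2-fold, 4 upward and 2 downward. For 57 of the 58 genes all 7 impaired arrays lay on the same side of the young mean. The exception, Ddah1, had 6 of 7. The genes were picked by their difference on these same arrays, so this count is no separate evidence.

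**Figure D1:**
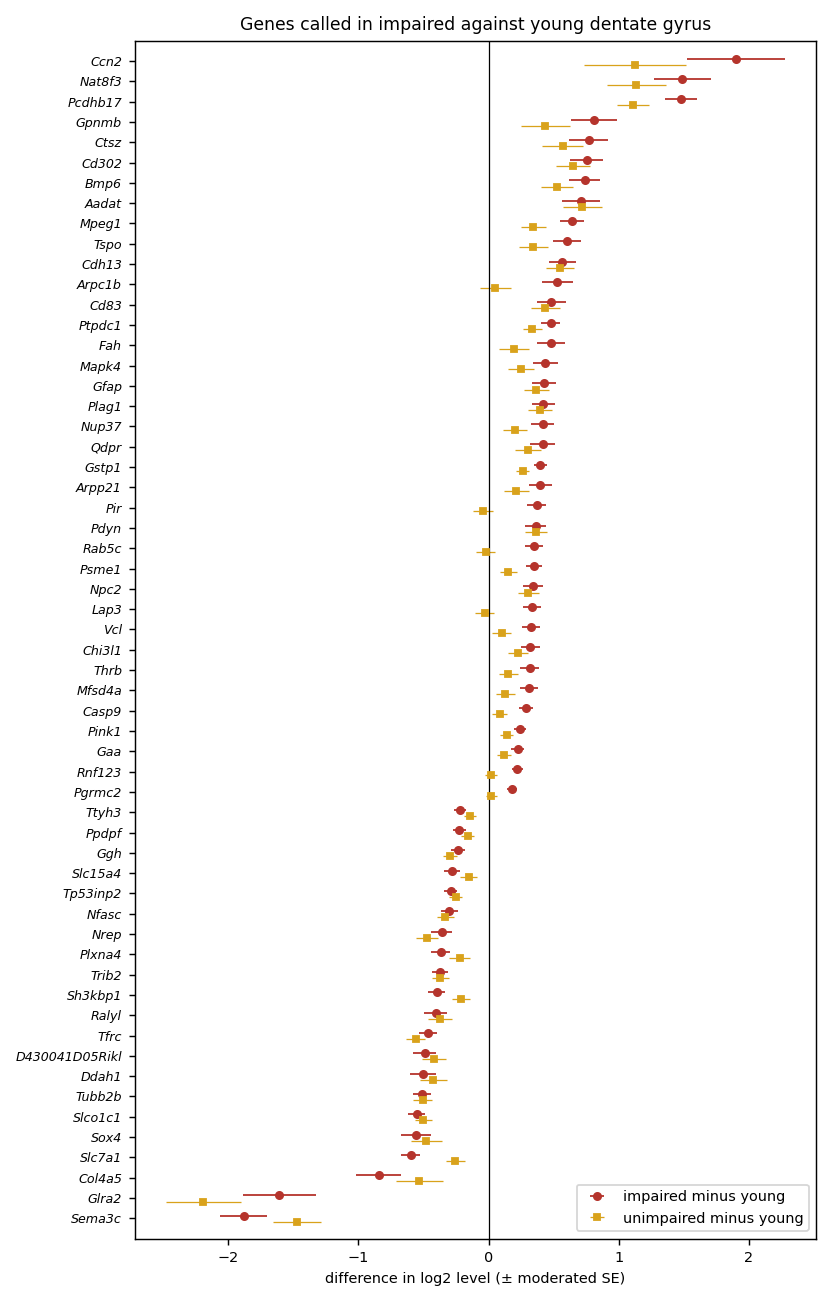
Difference in log2 level from young rats (x axis) of the 58 genes that passed in impaired rats, with moderated standard errors. Red circles are impaired minus young and yellow squares unimpaired minus young, and both use the same 8 young arrays. The largest differences are Ccn2 at 1.90 and Sema3c at -1.88.

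The split of directions moved with the scaling. Higher probe sets made up 60.3% of those passing on the deposited values, 47% after centring each array on its median and 50% after quantile normalisation. The median over all probe sets differed by 0.01 between the groups on the deposited values. The count moved with single arrays too. Leaving out young replicate 5 raised it to 161. It fell to 36 without impaired replicate 2, young replicate 3 or young replicate 9, to 37 without young replicate 6 and to 39 without impaired replicate 3. It was 41 without young replicate 7, 45 without impaired replicate 7 and 51 without unimpaired replicate 3. Of the 58 genes, 21 passed in every fit that left out 1 array. All 58 kept their direction in every setting in which they were tested. The settings reuse the arrays by which the genes were picked, so a kept direction is no separate evidence. A stricter level of log2 6 left 6 of them untested: Pcdhb17, Tspo, Arpc1b, Fah, Nup37 and Col4a5. The 13 genes tested and passing in every setting were Nat8f3, Cd302, Bmp6, Mpeg1, Ptpdc1 and Gstp1 among the higher genes, and Sema3c, Slc7a1, Slco1c1, Tubb2b, Tfrc, Trib2 and Tp53inp2 among the lower. Pcdhb17 passed in all settings but the stricter level.

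Each array was then placed by the probe sets that passed when it was left out, counting how many lay nearer the impaired than the young mean. All 7 impaired arrays were nearer the impaired mean for most probe sets, from 58.0% on impaired replicate 6 to 94.4% on impaired replicate 2. Of the young arrays, 7 were nearer the young mean, with 7.32% to 40.0% of probe sets on the impaired side. Young replicate 5 stood apart, with 62.1% of 161 probe sets nearer the impaired mean. It is kept as labelled.

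The same array and 3 impaired arrays also carried more RNA of markers of the meninges, the membranes around the brain. Averaged over the 9 measured markers of 24 on the list, the log2 level was 8.42, 8.26 and 7.81 on impaired replicates 2, 3 and 7 and 6.57 to 6.78 on the other impaired arrays. It was 7.38 on young replicate 5 and 6.48 to 7.04 on the other young arrays. All 9 members had a positive difference, with a median of 0.36, but none passed in limma. Of the 9, 3 (33.3%) had an unadjusted p below 0.05 in limma, beside 13.1% of all genes. The prostaglandin synthase Ptgds gave 1.40 ± 0.46 (limma adjusted p = 0.187) and the matrix-associated Aebp1 0.81 ± 0.22 (limma adjusted p = 0.106). The other 15 markers on the array passed log2 4 on too few arrays to be tested, and their highest value on any array ran from 2.44 for Asgr1 to 8.33 for the matrix protein Ogn. The fibroblast collagen Col1a2 reached 6.64, and Col1a1 and Col3a1 stayed below 4. With no filter on level 23 of all 24 were positive, with a median of 0.24. Without these 4 arrays the median of the list was -0.09. The arrays were picked by this same list, so that fall followed from the choice. In that fit 29 probe sets passed in place of 78, of which 26 were among the 78. The fit lacked 3 of the 7 impaired and 1 of the 8 young arrays. Effects of fewer animals and of meningeal RNA on the calls cannot be told apart. Among the 58 genes 19 passed. What part the meningeal RNA had in the other results was not tested beyond these values. In bulk tissue, more or fewer cells of a type and more or less RNA per cell cannot be told apart.

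**Figure D2:**
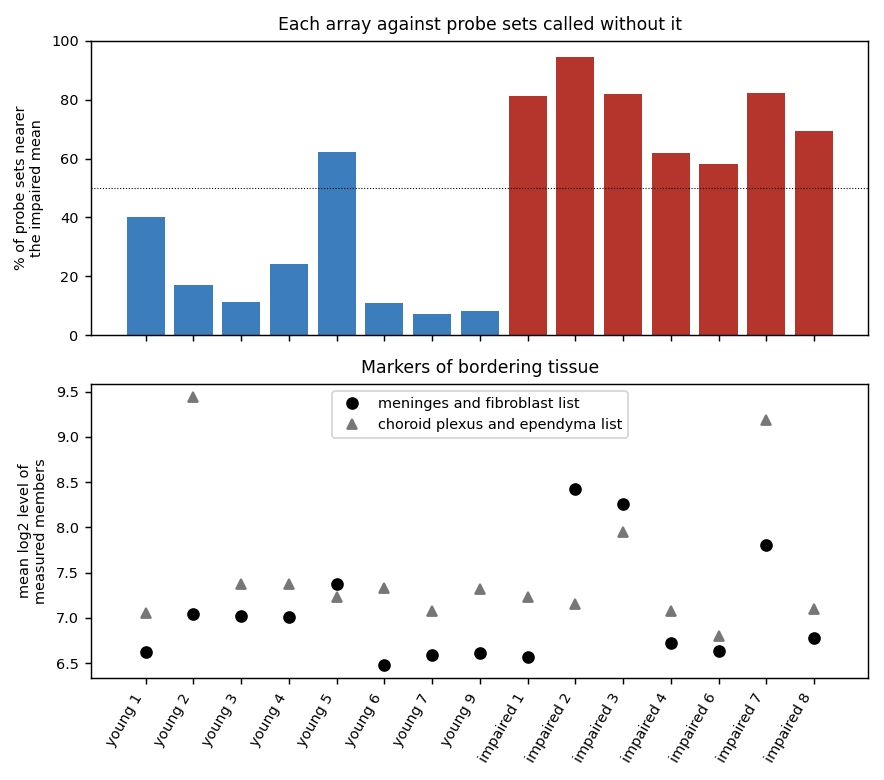
Upper panel: for each young (blue) and impaired (red) array, the percentage of probe sets, called without that array, whose level was nearer the impaired than the young mean, with a dotted line at equal division. Lower panel: mean log2 level of the measured markers of the meninges (circles) and of the choroid plexus and ependyma (triangles). Young replicate 5 reaches 62.1% and impaired replicates 2, 3 and 7 have the highest meningeal means, 8.42, 8.26 and 7.81.

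The gene most reduced in impaired rats was Sema3c, a secreted semaphorin and guidance cue for axons and migrating cells. Its log2 level ran from 7.56 through a median of 8.25 to 8.60 in young rats, and from 5.83 through 6.08 to 6.95 in impaired rats. The groups did not overlap, and the lowest young array was replicate 5. Sema3c fell by 1.88 ± 0.18 on the log2 scale, or 3.69-fold (limma adjusted p = 7.31e-06). Plxna4, a plexin that transmits semaphorin signals, fell by 0.37 ± 0.08 (limma adjusted p = 0.0271), with an adjusted p of 0.0609 when young replicate 6 was left out. A second Plxna4 probe set gave -0.13 ± 0.05 (limma adjusted p = 0.330). Of 21 measured semaphorins, neuropilins and plexins, these 2 fell and none rose; 16 had negative and 5 positive differences. Among all 8737 genes measured by their probe set of highest mean, 54 or 0.618% passed, 0.217% downward and 0.401% upward, and 43.8% had a negative difference. The co-receptor Nrp2 gave -0.23 ± 0.11 (limma adjusted p = 0.411).

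Glra2 encodes the alpha 2 subunit of the glycine receptor, an inhibitory chloride channel. It ranged from 5.10 to 7.26 with a median of 6.39 in young rats and from 4.35 to 5.35 with a median of 4.44 in impaired rats. Young replicate 1 lay at the bottom of the young range, among the impaired arrays, and the other young arrays were all above them. Glra2 fell by 1.61 ± 0.28, or 3.05-fold (limma adjusted p = 0.00807). It missed the threshold without the 4 arrays of high meningeal level, at a difference of -1.45 ± 0.36 (limma adjusted p = 0.169). Fewer animals were left in that fit, and the standard error was larger. Of 11 measured subunits and anchoring proteins of GABA-A and glycine receptors Glra2 was the only one to pass, and 8 had negative differences. Among all genes 0.217% fell and 43.8% had a negative difference.

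Carriers that act in brain capillaries were among the genes that fell. Slco1c1 encodes the carrier that brings thyroxine across brain capillaries. Its level was 9.53 to 10.02 (median 9.78) in young and 9.08 to 9.34 (median 9.22) in impaired rats, with a clear gap between the groups. Slco1c1 fell by 0.55 ± 0.06 (limma adjusted p = 0.000146). Tfrc, the transferrin receptor through which cells take up iron, was at 10.46 to 10.93 (median 10.73) in young and 10.07 to 10.46 (median 10.24) in impaired rats. Young replicate 5 and impaired replicate 7 nearly met, and the others were well apart. Tfrc fell by 0.46 ± 0.07 (limma adjusted p = 0.00272), and a second probe set of it by 0.61 ± 0.11 (limma adjusted p = 0.0125). Without young replicate 5 the first gave -0.51 ± 0.07 (limma adjusted p = 0.000327).

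The third was Slc7a1, which carries arginine and other cationic amino acids. By the probe set that passed, levels were 7.60 to 8.07 (median 7.82) in young and 6.95 to 7.34 (median 7.30) in impaired rats, without overlap. Slc7a1 fell by 0.60 ± 0.07 (limma adjusted p = 0.000154) by that probe set. The brighter probe set of the same gene gave -0.30 ± 0.07 (limma adjusted p = 0.0643). The endothelial list as a whole did not lean one way. Of 21 measured members 2 fell, none rose, 10 had positive and 11 negative differences, and the median was -0.06 against 0.01 over all genes. The barrier and nutrient transporter list shares Slco1c1, Tfrc, Slc7a1 and other genes with the endothelial list. It had 9 positive and 9 negative members of 18 and a median of 0.00. Among all genes 0.217% fell, 0.401% rose and 43.8% had a negative difference. Thrb, a nuclear receptor for thyroid hormone, rose by 0.32 ± 0.07 (limma adjusted p = 0.0493). Its young range of 8.95 to 9.58 held young replicate 5 at the top, above all the impaired arrays, which ran from 9.24 to 9.54. Thrb passed in only 2 of 21 fits that left out 1 array, and its adjusted p was 0.115 when impaired replicate 2 was left out. Without young replicate 5 it rose by 0.38 ± 0.05 (limma adjusted p = 0.000259), and without all 4 arrays of high meningeal level by 0.35 ± 0.06 (limma adjusted p = 0.00948). A second, dimmer Thrb probe set gave 0.10 ± 0.07 (limma adjusted p = 0.567).

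Ddah1, which breaks down an endogenous inhibitor of nitric oxide synthase, fell by 0.50 ± 0.10 (limma adjusted p = 0.0249). Impaired replicate 7, at 8.17, lay within the young range of 7.94 to 8.30. Without impaired replicate 3 the adjusted p was 0.0596. Among 10 measured genes of arginine and nitric oxide metabolism, no other passed by its brightest probe set. Col4a5, a collagen chain of basement membranes, fell by 0.84 ± 0.18 (limma adjusted p = 0.0300), from 4.80 to 5.92 in young to 3.88 to 4.84 in impaired rats. Its ranges just touched, and without impaired replicate 1 the adjusted p was 0.0725. The other 17 measured matrix genes did not pass, of which Fbln2 gave -0.75 ± 0.23 and Nid1 -0.48 ± 0.16 (limma adjusted p of 0.158 and 0.195).

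Most genes of immature neurons had lower values. Of 17 measured members of the progenitor and immature neuron list, 3 fell (Tubb2b, Sox4 and Nrep) and none rose. A negative difference was seen in 16, with a median of -0.11. Over all genes 43.8% had a negative difference, 0.217% fell and the median was 0.01. Tubb2b, a beta tubulin of growing neurons, ran from 11.13 through 11.40 to 11.55 in young and from 10.64 through 10.82 to 11.03 in impaired rats, with no overlap. It fell by 0.51 ± 0.07 (limma adjusted p = 0.00069). Sox4, a transcription factor of newborn neurons, was at 8.66 to 9.43 in young and 8.10 to 8.64 in impaired rats, also without overlap, and fell by 0.56 ± 0.11 (limma adjusted p = 0.0266). A second Sox4 probe set fell by 0.59 ± 0.10 (limma adjusted p = 0.00498). Nrep, a small protein of regenerating neurons, fell by 0.36 ± 0.08 (limma adjusted p = 0.0437). Without impaired replicate 2 the adjusted p was 0.0671 for Sox4 and 0.0962 for Nrep. Marcksl1 missed the threshold at -0.30 ± 0.08 (limma adjusted p = 0.0977), and the proneural factor Neurod1 gave -0.01.

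The defining marker Dcx reached at most 4.20 on any array, and Sox11, Eomes and Mki67 stayed below log2 4, so these genes were not tested. The count of falling members was 1 without impaired replicate 2 or 3 or young replicate 3, 6, 7 or 9, was 2 in most other such fits and 4 without impaired replicate 7. It was 1, Tubb2b, without the 4 arrays of high meningeal level. Tubb2b passed in every one of these fits. Among 10 measured tubulins, Tubb2b was the only one that passed, with Tubb3 at -0.11 ± 0.04 (limma adjusted p = 0.276). The unimpaired rats had a median of -0.17 over the progenitor and immature neuron list. No all-gene median of unimpaired minus young is given here, so that value is not set against the impaired median.

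**Figure D3:**
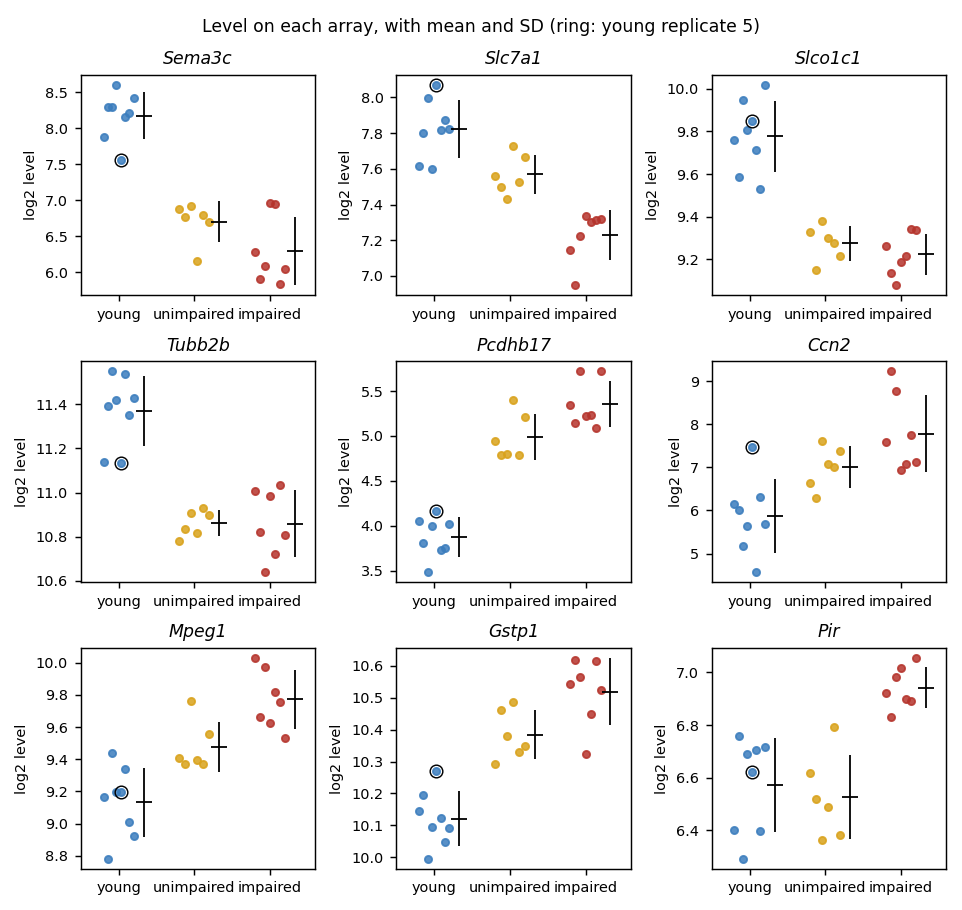
Log2 level on every array of 9 genes in young (blue, n = 8), unimpaired (yellow, n = 6) and impaired (red, n = 7) rats, with the mean and SD beside each group. Young replicate 5 is ringed. Sema3c, Slc7a1, Slco1c1, Tubb2b, Pcdhb17, Mpeg1, Gstp1 and Pir have no overlap between young and impaired arrays, and Ccn2 has.

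The gene most increased was Ccn2, a secreted matricellular protein induced by TGF beta and mechanical stress. Its level was 4.58 to 7.47 (median 5.85) in young and 6.95 to 9.22 (median 7.58) in impaired rats. Impaired replicates 2 and 3 were the highest at 9.22 and 8.76, and young replicate 5 was the only young array inside the impaired range. Ccn2 rose by 1.90 ± 0.38, or 3.74-fold (limma adjusted p = 0.0249). The adjusted p was 0.0596 without impaired replicate 3, and 0.0404 without the 4 arrays of high meningeal level, with a difference of 1.53 ± 0.29. Without young replicate 5 the difference was 2.13 ± 0.34 (limma adjusted p = 0.00307). Bmp6, a secreted bone morphogenetic protein, had 6.93 to 7.59 (median 7.07) in young and 7.55 to 8.37 (median 7.96) in impaired rats. Again only young replicate 5 reached the impaired range. Bmp6 rose by 0.74 ± 0.12 (limma adjusted p = 0.00472), and by 0.58 ± 0.09 without the 4 arrays (limma adjusted p = 0.0112). Without young replicate 5 it rose by 0.80 ± 0.11 (limma adjusted p = 0.000749). A second, dimmer Bmp6 probe set gave 0.39 ± 0.15 (limma adjusted p = 0.255). Over all genes 0.401% rose, 0.217% fell and 56.2% had a positive difference. Of 24 measured genes of BMP and TGF beta signalling Ccn2 and Bmp6 rose and none fell, with 11 positive and 13 negative differences. The nearest to the threshold of the others were Fstl5, a follistatin-like protein, at -0.58 ± 0.13 and the activin receptor Acvr2a at -0.32 ± 0.08 (limma adjusted p of 0.0559 and 0.0711).

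Nat8f3, a member of the N-acetyltransferase 8 family, had young levels of 4.35 to 5.57 (median 5.38) and impaired levels of 6.05 to 7.23 (median 6.66), well apart. It rose by 1.49 ± 0.22, or 2.81-fold (limma adjusted p = 0.00176). Pcdhb17, a protocadherin of the clustered beta family, had young levels of 3.49 to 4.17 (median 3.90) and impaired levels of 5.09 to 5.72 (median 5.24). The gap between the groups exceeded the range of either. Pcdhb17 rose by 1.48 ± 0.12, or 2.79-fold (limma adjusted p = 8.33e-07). In 5 of 8 young arrays it lay under log2 4, so it met the filter on level through the old rats. Beta protocadherins are close copies of one another, so the probe set may not separate this gene from its neighbours. The 8 other measured protocadherins did not pass, and 7 of them had negative differences, beside 43.8% of all genes. The fourth increase past 2-fold was a probe set without a gene symbol, at 1.42 ± 0.29 (limma adjusted p = 0.0252).

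Most markers of microglia and macrophages had higher values. Of 17 measured members of that list, 3 rose (Mpeg1, Tspo and Gpnmb), none fell and 15 had positive differences, with a median of 0.23. Over all genes the median was 0.01, 56.2% were positive and 0.401% rose. Mpeg1, a pore-forming protein of phagocytes, was at 8.78 to 9.44 (median 9.18) in young and 9.53 to 10.03 (median 9.76) in impaired rats, without overlap. It rose by 0.64 ± 0.09 (limma adjusted p = 0.00176). Tspo, a protein of the outer mitochondrial membrane used as a marker of reactive glia, was at 4.25 to 4.78 in young and 4.85 to 5.60 in impaired rats. It rose by 0.61 ± 0.11 (limma adjusted p = 0.00988), also without overlap. Gpnmb, a glycoprotein of lipid-laden and phagocytic cells, rose by 0.81 ± 0.18 (limma adjusted p = 0.0437). It was highest on impaired replicates 2 and 4, at 7.25 and 6.75, against 5.03 to 5.83 in young rats.

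Gpnmb passed in only 5 of 21 fits that left out 1 array, with an adjusted p of 0.0892 without young replicate 6. The list had 5 rising members without young replicate 5, 4 without impaired replicate 8 or young replicate 4, and 2 in most other such fits. Without the 4 arrays of high meningeal level its median was 0.26 and Mpeg1 alone passed. The homeostatic markers Cx3cr1 and Itgam and the activation markers Cd68, Clec7a, Itgax and Spp1 stayed below log2 4 on all arrays and were not tested. Fcer1g, a signalling adaptor of phagocytes, missed the threshold at 0.41 ± 0.10 (limma adjusted p = 0.0663). No complement gene passed in limma, with 5 of 8 positive and a median of 0.26. Beside 13.1% of all genes, 3 of the 8 (37.5%) had an unadjusted p below 0.05 in limma. Among them were C1qa, a chain of the first complement component, at 0.41 ± 0.11 and C3 at 0.97 ± 0.32 (limma adjusted p of 0.116 and 0.184). All 6 measured interferon response genes were positive and none passed in limma, with 2 (33.3%) at an unadjusted p below 0.05. The membrane protein Ifitm3 was the largest at 0.95 ± 0.31 (limma adjusted p = 0.179).

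**Figure D4:**
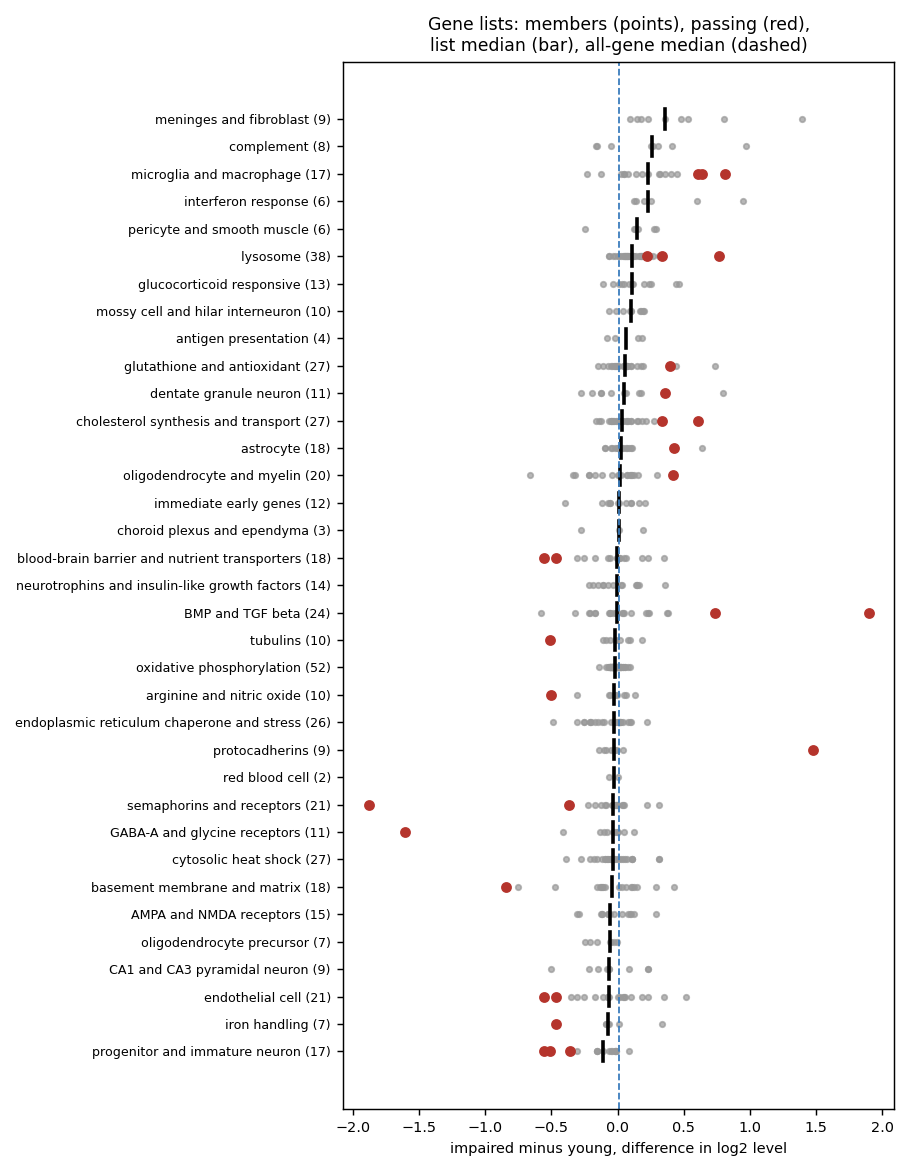
Differences in log2 level, impaired minus young (x axis), of the measured members of 35 gene lists, with the number of measured members in brackets. Grey points are members that did not pass, red points members that passed, black bars list medians and the dashed line the median of all genes. The microglia and lysosome lists lie mostly to the right, with medians of 0.23 and 0.11, and the progenitor list to the left at -0.11.

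Lysosomal genes had small positive differences. Of 38 measured members, 34 were positive, 3 rose (Ctsz, Npc2 and Gaa) and none fell, with a median of 0.11. Over all genes 56.2% were positive, 0.401% rose and the median was 0.01. Ctsz, the protease cathepsin Z, was at 5.07 to 6.02 in young and 5.86 to 6.60 in impaired rats, overlapping through young replicates 3, 4 and 5. It rose by 0.77 ± 0.15 (limma adjusted p = 0.0240), and the adjusted p was 0.0630 when impaired replicate 2 was left out. Without young replicate 5 it rose by 0.84 ± 0.15 (limma adjusted p = 0.00719). Npc2, which carries cholesterol out of the lysosome, rose by 0.34 ± 0.08, and Gaa, the acid alpha-glucosidase that degrades glycogen, by 0.23 ± 0.05 (limma adjusted p of 0.0459 for both). Npc2 passed in 5 of 21 fits that left out 1 array, with 0.0974 without impaired replicate 1, and Gaa in 4, with 0.106 without impaired replicate 2. A second, dimmer Gaa probe set gave 0.15 ± 0.10 (limma adjusted p = 0.584). The protease Ctss missed the threshold at 0.31 ± 0.08 (limma adjusted p = 0.0686). No member passed without impaired replicate 2 or 3, young replicate 6 or 9, or the 4 arrays together, 1 or 2 passed in most other fits, and 4 passed without impaired replicate 8 or young replicate 5. Without the 4 arrays the median was 0.11, with 30 of 38 positive. Outside the list, 2 genes of lysosomal proteins fell: Slc15a4, a peptide and histidine transporter, by 0.28 ± 0.06 and Ggh, a hydrolase of folate, by 0.23 ± 0.05 (limma adjusted p of 0.0437 for both). Their adjusted p reached 0.0980 without impaired replicate 1 for Slc15a4 and 0.0976 without impaired replicate 7 for Ggh.

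Single genes of detoxification, proteolysis and mitochondrial clearance were among those that rose. Gstp1, a glutathione S-transferase, reached 10.27 (median 10.11) in young rats and lay at 10.32 to 10.62 (median 10.54) in impaired rats, without overlap. It rose by 0.40 ± 0.05 (limma adjusted p = 0.000156). Pir, an iron-binding nuclear protein, rose by 0.37 ± 0.07 (limma adjusted p = 0.0252), from 6.29 to 6.76 in young to 6.83 to 7.05 in impaired rats. The glutathione and antioxidant list had 27 measured members, of which 18 were positive and Gstp1 alone passed. Among all genes 56.2% were positive and 0.401% rose. Gsta1 gave 0.45 ± 0.10 (limma adjusted p = 0.0559) and the regulator Nfe2l2 0.19 ± 0.07 (limma adjusted p = 0.210). Psme1, a subunit of the proteasome activator PA28, rose by 0.35 ± 0.06 (limma adjusted p = 0.00963), and Lap3, a cytosolic leucine aminopeptidase, by 0.34 ± 0.07 (limma adjusted p = 0.0324). Both had no overlap between the groups. Pink1, the kinase that marks damaged mitochondria, rose by 0.24 ± 0.05 (limma adjusted p = 0.0249). The adjusted p was 0.0596 for Pir without impaired replicate 3, 0.0700 for Lap3 without impaired replicate 7 and 0.0642 for Pink1 without impaired replicate 2.

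Promoter windows were read from RefSeq for 47 of the 58 genes, 32 higher and 15 lower, on the GRCr8 assembly. Each window of 300 bases runs from 250 bases before the start of the gene to 50 after it. A pair of motifs was searched on both strands, with no overlap in letters: TGACNNNGC, the core of the antioxidant response element bound by the Nfe2l2 protein, and CACGTG, a palindromic E-box. The first was in 12.2% of all 27457 promoters of that length, in 5 of 32 windows of higher genes and in 2 of 15 of lower genes. The second was in 6.65% of all promoters, in 6 of 32 higher genes (Ptpdc1, Lap3, Mfsd4a, Pink1, Gaa and Pgrmc2) and in 0 of 15 lower genes. These counts describe letters and are no evidence of binding, and the motifs were chosen with the list of genes known.

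The windows of Gstp1 (chr1:210769656-210769955, minus strand) and Pir (chrX:33851000-33851299, minus strand) are shown because these antioxidant-related genes rose without overlap and hold the first motif, in capitals. Each sequence reads 5′ to 3′ along its gene.
Gstp1: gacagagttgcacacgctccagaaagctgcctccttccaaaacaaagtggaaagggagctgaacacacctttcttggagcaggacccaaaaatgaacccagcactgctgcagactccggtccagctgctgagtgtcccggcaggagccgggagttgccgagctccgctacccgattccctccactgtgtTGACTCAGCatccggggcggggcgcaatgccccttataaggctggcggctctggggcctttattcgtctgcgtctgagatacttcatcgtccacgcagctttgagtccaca
Pir: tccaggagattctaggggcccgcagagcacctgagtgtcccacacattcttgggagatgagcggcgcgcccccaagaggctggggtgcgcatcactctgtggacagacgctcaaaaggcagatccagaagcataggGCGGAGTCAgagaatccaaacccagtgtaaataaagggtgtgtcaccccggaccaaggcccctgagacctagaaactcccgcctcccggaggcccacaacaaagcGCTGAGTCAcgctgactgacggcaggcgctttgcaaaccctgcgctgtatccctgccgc
The windows of Gaa (chr10:105028105-105028404, plus strand) and Pink1 (chr5:155825901-155826200, minus strand) are shown for the E-box, in capitals, in genes of lysosomal and mitochondrial clearance that rose.
Gaa: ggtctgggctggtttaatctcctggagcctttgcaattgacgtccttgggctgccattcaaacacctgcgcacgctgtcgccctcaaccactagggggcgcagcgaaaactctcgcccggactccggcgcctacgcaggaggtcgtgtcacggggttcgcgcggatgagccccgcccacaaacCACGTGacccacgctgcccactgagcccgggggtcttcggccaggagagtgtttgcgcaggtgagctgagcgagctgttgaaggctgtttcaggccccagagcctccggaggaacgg
Pink1: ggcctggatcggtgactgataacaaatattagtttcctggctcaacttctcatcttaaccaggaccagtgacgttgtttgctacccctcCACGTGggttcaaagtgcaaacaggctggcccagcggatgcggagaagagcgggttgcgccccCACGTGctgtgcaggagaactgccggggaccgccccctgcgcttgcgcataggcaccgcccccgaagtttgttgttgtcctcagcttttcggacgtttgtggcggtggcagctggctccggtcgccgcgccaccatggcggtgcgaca

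In each list of astrocyte, myelin and granule neuron genes 1 member passed. At an unadjusted p below 0.05 in limma were 2 of 18 astrocyte genes (11.1%), 7 of 20 myelin genes (35%) and 4 of 11 granule neuron genes (36.4%), beside 13.1% of all 8737 genes. Gfap, the intermediate filament of astrocytes, was at 12.32 to 12.64 (median 12.53) in young and 12.64 to 13.34 (median 12.92) in impaired rats, and the ranges just separated. Gfap rose by 0.43 ± 0.09 (limma adjusted p = 0.0407), and the adjusted p was 0.0895 when impaired replicate 7 was left out. It was the only one of 18 measured astrocyte genes to pass, and the median was 0.02. Chi3l1, a secreted chitinase-like protein of reactive astrocytes, rose by 0.32 ± 0.07 (limma adjusted p = 0.0469). Of 20 myelin genes, Qdpr, which regenerates tetrahydrobiopterin, rose by 0.42 ± 0.09 (limma adjusted p = 0.0497), and Ugt8, which makes the myelin lipid galactosylceramide, gave -0.66 ± 0.20 (limma adjusted p = 0.142). The 7 measured genes of oligodendrocyte precursors were all negative, beside 43.8% of all genes, with a median of -0.06. None of the 7 passed in limma, with 1 at an unadjusted p below 0.05. Without impaired replicate 1 the adjusted p was 0.0991 for Chi3l1 and 0.111 for Qdpr.

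Of 11 granule neuron genes, Pdyn, the precursor of the opioid dynorphins, was the only one to pass. It rose by 0.36 ± 0.08 (limma adjusted p = 0.0469), from 10.01 to 10.44 in young to 10.39 to 10.77 in impaired rats. Without impaired replicate 1 its adjusted p was 0.108. The desmosomal protein Dsp gave 0.80 ± 0.23 (limma adjusted p = 0.121). Some broad groups held no gene that passed. In oxidative phosphorylation, 0 of 52 measured subunits reached even an unadjusted p below 0.05 in limma, and differences ran from -0.14 to 0.09. No member passed among 27 cytosolic heat shock genes, 26 chaperones and stress genes of the endoplasmic reticulum, 15 AMPA and NMDA receptor genes, 12 immediate early genes or 14 genes of neurotrophins and insulin-like growth factors. Their unadjusted p in limma was below 0.05 for 7, 8, 3, 1 and 1 members, or 25.9%, 30.8%, 20%, 8.33% and 7.14%, beside 13.1% of all genes. Of all genes 0.618% passed. Glucocorticoid responsive genes were positive in 11 of 13, beside 56.2% of all genes. None of the 13 passed in limma, with 4 at an unadjusted p below 0.05. The kinase Sgk1 gave 0.46 ± 0.13 (limma adjusted p = 0.119). Without the 4 arrays of high meningeal level 7 of the 13 were positive.

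Further genes rose by less than 2-fold. Cd302, a C-type lectin receptor, rose by 0.75 ± 0.13 (limma adjusted p = 0.00598), with levels of 8.90 to 9.88 in young and 9.98 to 10.29 in impaired rats that did not overlap. Aadat, which makes the neuroactive metabolite kynurenic acid, rose by 0.71 ± 0.15 (limma adjusted p = 0.0300), and the GPI-anchored cadherin Cdh13 by 0.57 ± 0.10 (limma adjusted p = 0.0125). The other, brighter Cdh13 probe sets gave 0.34 ± 0.08 and 0.33 ± 0.08 (limma adjusted p of 0.0559 and 0.0748). Aadat lost its call in 8 of 21 fits that left out 1 array, with an adjusted p of 0.0663 without young replicate 9. Of the phosphatase Ptpdc1 the levels were 6.57 to 7.07 in young and 7.20 to 7.43 in impaired rats, a rise of 0.48 ± 0.07 (limma adjusted p = 0.00265). Casp9, the initiator caspase of the mitochondrial death pathway, rose by 0.29 ± 0.05 (limma adjusted p = 0.0147). The remaining rises lay between 0.18 for Pgrmc2, a heme-binding membrane protein, and 0.53 for Arpc1b, a subunit of the actin-nucleating Arp2/3 complex. Arpc1b was dim, at 3.87 to 4.30 in young and 4.30 to 5.38 in impaired rats, with 2 young arrays under log2 4. Its limma adjusted p was 0.0956 when impaired replicate 7 was left out. That of Pgrmc2 was 0.0991 when impaired replicate 1 was left out.

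Further genes that fell included Trib2, a pseudokinase, by 0.37 ± 0.06 (limma adjusted p = 0.00638), Sh3kbp1, an adaptor of receptor endocytosis, by 0.40 ± 0.07 (limma adjusted p = 0.00598), and Tp53inp2, an autophagy protein, by 0.29 ± 0.05 (limma adjusted p = 0.00888). The young and impaired arrays of Sh3kbp1 did not overlap, but its second probe set gave -0.15 ± 0.08 (limma adjusted p = 0.438). Nfasc, which anchors channels at the axon initial segment, fell by 0.30 ± 0.06 by 1 probe set (limma adjusted p = 0.0300), while its others gave 0.18, 0.08 and -0.28 without passing. Arpp21, a neuronal phosphoprotein, also disagreed between probe sets: it rose by 0.40 ± 0.09 by 1 (limma adjusted p = 0.0459) and the others gave 0.12 and -0.14. The adjusted p was 0.0741 for Nfasc when impaired replicate 7 was left out, and 0.102 for Arpp21 when impaired replicate 3 was. A probe set with no symbol fell by 0.86 ± 0.10 (limma adjusted p = 0.000154).

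Impaired and young arrays were fully apart for 48 of 15177 probe sets, or 0.316%, whatever their p, with impaired above in 26 (0.171%) and below in 22 (0.145%). Of these, 32 were among the 78 that passed. By gene, 26 of the 58 were apart, 14 higher and 12 lower.

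In unimpaired minus young, 172 probe sets passed (1.13%), 30 higher (0.198%) and 142 lower (0.936%). How this split of directions moves with the scaling was not tested. The split in impaired minus young did move with it. On the deposited values the median of impaired minus unimpaired over all probe sets was 0.05. Both comparisons use the same young arrays, so their values are given side by side and not tested against each other. Unimpaired minus young was -1.47 ± 0.19 for Sema3c, -2.19 ± 0.29 for Glra2, -0.50 ± 0.07 for Slco1c1, -0.56 ± 0.07 for Tfrc and -0.51 ± 0.07 for Tubb2b. It was 1.14 ± 0.23 for Nat8f3, 1.11 ± 0.13 for Pcdhb17, 1.13 ± 0.39 for Ccn2 and 0.34 ± 0.10 for Mpeg1. Unimpaired values were closer to 0 for Pir at -0.04 ± 0.08 and Lap3 at -0.03 ± 0.07. The same held for Rab5c, a small GTPase of early endosomes, at -0.02 ± 0.08 and the ubiquitin ligase subunit Rnf123 at 0.02 ± 0.05. It also held for Pgrmc2 at 0.02 ± 0.04 and Arpc1b at 0.05 ± 0.12, by the probe sets that passed. Other probe sets gave 0.13 ± 0.09 for Rnf123, and 0.16 ± 0.05 and 0.10 ± 0.06 for Pgrmc2. By these probe sets impaired minus young was 0.10 for Rnf123, and 0.21 and 0.11 for Pgrmc2.

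The direct test of the old groups against each other made no call. In impaired minus unimpaired, 0 of 15177 probe sets passed in limma, the lowest adjusted p was 0.129, and 2199 had an unadjusted p below 0.05, against 759 expected at that rate. That count was 1700 after median centring and 1563 after quantile normalisation, and the median difference over all probe sets went from 0.05 on the deposited values to 0.04 and -0.01. Pir differed by 0.41 ± 0.08 (limma adjusted p = 0.129), with impaired rats at 6.83 to 7.05 and a mean of 6.53 ± 0.16 (SD, n = 6) in unimpaired rats. Lap3 gave 0.36 ± 0.08, Rab5c 0.37 ± 0.08 and the passing probe set of Slc7a1 -0.34 ± 0.08, each with a limma adjusted p of 0.129. The brighter Slc7a1 probe set gave 0.04 ± 0.08 (limma adjusted p = 0.847). Arpc1b, whose level lay near log2 4 in young and unimpaired rats, gave 0.48 ± 0.12 (limma adjusted p = 0.151). These genes were chosen through the same impaired arrays, so their differences here are no separate evidence. Without unimpaired replicate 7, 4 probe sets passed, of Nap1l1, Pir, Ift74 and a sequence without a symbol, with adjusted p of 0.0142 to 0.0309, and Pir was the only one of them among the 58 genes.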

How the data were processed

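Total RNA from dentate gyrus was measured on Affymetrix rat genome arrays. The deposited values are log2 probe set levels that the authors made with GCRMA, which corrects background, normalises between arrays and summarises probes, per the submitters' processing notes, with no version given. GCRMA compresses low signals, so fold changes of dim probe sets are uncertain. Groups follow the labels. Replicates are labelled as biological, and no hybridisation date or batch is given in the sources used here.

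Of 31099 probe sets, 57 controls were left out and 15177 with a log2 value above 4 on at least 6 arrays were tested. The fit used lmFit and eBayes of limma (3.58.1, under R 4.3.3) on all 3 groups together, with 18 residual degrees of freedom and Benjamini-Hochberg adjustment. The code was tested on simulated data. Probe sets were named by the platform annotation: 11476 of those tested have 1 symbol, 281 several and 3420 none. Genes that passed are represented by their passing probe set of highest mean, and in lists each of 8737 genes by its tested probe set of highest mean. Every gene that passed could be named, and up to 4 members of a list with the smallest p. Neurod1, Prox1, genes named as below the level and single arrays were chosen after their values were seen. The 35 lists came from textbook knowledge, and the members and lists were chosen with earlier results of these data known, so lists are given as counts and medians without a test. Alternatives were the level filter, scaling, groups fitted, array weights, prior, replicate block, 1 probe set per gene, and leaving out arrays.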

Additional observations from a re-analysis of the deposited data

Results flagged for a closer look

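In these results 1 array lay far from the others of its group, by Dixon's criterion for groups of 7 or 8. In all, 240 groups were checked and 19 were marked, where chance at 1 in 20 would mark 12.

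Among genes that passed, Nat8f3 was low on young replicate 9, at a log2 level of 4.355, and Ppdpf high on it, at 8.772. Young replicate 5 was high for Thrb (9.58) and low for Tfrc (10.46), in both cases toward the impaired rats. Lap3 was low on young replicate 1 (7.849), Sh3kbp1 was high on young replicate 3 (7.707) and Aadat was high on impaired replicate 8 (6.554).

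Among list members that did not pass, young replicate 5 was high for the meningeal and astrocyte genes Ptgds (11.52) and Vim (8.469) and low for the phosphatase Dusp6 (7.852). Young replicate 1 was low for Plekhb1 (10.54) and high for Cacng3 (9.385). Young replicate 3 was high for Hspa1a (5.811), young replicate 9 for Dnajb1 (10.17) and young replicate 6 for Fgfr2 (9.062). Of the impaired arrays, replicate 7 was high for Stat2 (6.525), replicate 2 for the glucose transporter Slc2a1 (10.01) and replicate 6 for Manf (9.31).

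The mean of the choroid plexus and ependyma list reached 9.439 for young replicate 2, and the rest of the young arrays had 7.055 to 7.378. It was 9.187 on impaired replicate 7.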

How the results depend on the processing

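The 58 genes kept their direction in every alternative, except that 6 of them were not tested at the stricter level of log2 6. All alternatives reuse the arrays by which the genes were picked. In impaired minus young, 33 probe sets passed (16 higher, 17 lower) with no level filter, and 33 (14 higher, 19 lower) with only the groups compared in the fit. Higher calls numbered 31 after median centring, and lower calls 56 after quantile normalisation. Without impaired replicates 2, 3 and 7 and young replicate 5, 29 passed (16 higher, 13 lower). Leaving out 1 array gave 36 to 161 in all, 16 to 101 higher and 17 to 60 lower. The causes of these shifts were not tested. The labels do not say whether replicate numbers pair the samples. Same-numbered impaired and young arrays had correlations of -0.0677 to 0.20 in their deviations, over 6 pairs. Of 6 impaired arrays, 3 were closest to their own number. Whether the numbers stand for a shared batch was not tested. The fit with the replicate block passed 114 probe sets, 83 of them higher, and 38 of the 58 genes.

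Impaired minus unimpaired gave 1 call (1 lower, 1700122O11Rikl) with only those groups in the fit, and 0 to 4 calls, 0 to 4 higher and 0 lower, when 1 array was left out. Array medians differed by 0.00814 to 0.0166 when 1 array was left out, Gapdh 3' minus 5' by 0.0200 to 0.0398 and beta-actin by -0.0756 to -0.0284. Without the 4 arrays beta-actin reversed to 0.0186 (exact permutation adjusted p = 0.691), and Vim, which had not passed, to -0.0427. Dim probe sets near log2 4 and the small number of animals limit what could be detected.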
